A study of Mus musculus with 76 samples.

Results

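Gene starts that carried both H3K4me3 and H3K27me3 at 2 stages of mouse diencephalon development were described here, with the H3K27ac, the CTCF and the RNA of the same tissue. Members were chosen from the peak lists alone: the 5′ end of a protein-coding gene record (GENCODE, mm39) had to lie within 2000 bp of an H3K4me3 peak and of an H3K27me3 peak in both wild type replicates at E11.5 and in all 3 at E17.5. This held for 3252 of 21757 starts, or 14.9%. The series compared wild type C57BL/6J mice with a line in which the mouse sequence at hs754 was replaced by its human ortholog, and only the wild type samples were used unless stated. Each E11.5 sample was a pool of 6 embryos and each E17.5 sample a pool of 3, with 4 RNA samples per stage, 2 ChIP replicates per mark at the earlier stage, 3 at the later one, and CTCF at the later stage only. Both groups of wild type samples shared strain and tissue and differed in embryonic day, so that stage and pool size cannot be told apart.

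H3K4me3 is laid down at active and CpG-rich promoters by the SET1 and MLL (Trithorax) complexes, and H3K27me3 by Polycomb repressive complex 2 (PRC2). Promoters at which both marks are found are called bivalent, and in embryonic cells they belong largely to developmental regulators that are silent or lowly transcribed. In a tissue made of many cell types, peaks of both marks can also come from different cells, one with the gene on and one with it off, and peak lists from whole tissue cannot tell these apart. H3K27ac, which occupies the same lysine as H3K27me3, marks active promoters and enhancers, and CTCF is a zinc finger protein that anchors chromatin loops.

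The 250 bases before the start are shown for members at the extremes of the measurements, so that the range of base composition can be seen (mm39, GENCODE gene starts, 5′ to 3′ on the strand of the gene, CpG in capitals). Avp (chr2:130424641-130424890, minus strand) and Frem3 (chr8:81337459-81337708, plus strand) were among the largest rises in RNA, Tal2 (chr4:53779217-53779466, plus strand) and Sall4 (chr2:168609864-168610113, minus strand) were among the largest falls, and Nr2f2 (chr7:70016520-70016769, minus strand) and Runx1t1 (chr4:13742915-13743164, plus strand) the highest mean H3K27ac enrichment at E11.5 and E17.5. The stretches held from 1 CpG (Nr2f2) to 20 CpG (Runx1t1). The record of Nr2f2 begins 6178 bp from the start of its canonical transcript, so its stretch is not the promoter of that transcript. Those of Sall4 and Tal2 begin 646 and 238 bp from their canonical starts, so their stretches are not the 250 bases before those starts either.
Avp: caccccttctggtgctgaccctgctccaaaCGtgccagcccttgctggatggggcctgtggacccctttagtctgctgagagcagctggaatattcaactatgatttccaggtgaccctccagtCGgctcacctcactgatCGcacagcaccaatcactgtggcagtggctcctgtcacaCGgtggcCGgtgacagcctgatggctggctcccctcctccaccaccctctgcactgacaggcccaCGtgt
Frem3: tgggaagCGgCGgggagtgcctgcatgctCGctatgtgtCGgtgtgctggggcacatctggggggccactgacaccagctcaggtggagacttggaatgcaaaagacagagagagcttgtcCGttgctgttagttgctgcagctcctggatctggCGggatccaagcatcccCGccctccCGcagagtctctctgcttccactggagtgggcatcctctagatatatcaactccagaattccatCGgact
Tal2: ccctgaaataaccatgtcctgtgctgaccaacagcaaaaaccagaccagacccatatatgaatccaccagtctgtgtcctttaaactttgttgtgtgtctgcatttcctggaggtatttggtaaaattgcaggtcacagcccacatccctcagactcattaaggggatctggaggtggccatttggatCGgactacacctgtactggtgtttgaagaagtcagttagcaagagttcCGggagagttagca
Sall4: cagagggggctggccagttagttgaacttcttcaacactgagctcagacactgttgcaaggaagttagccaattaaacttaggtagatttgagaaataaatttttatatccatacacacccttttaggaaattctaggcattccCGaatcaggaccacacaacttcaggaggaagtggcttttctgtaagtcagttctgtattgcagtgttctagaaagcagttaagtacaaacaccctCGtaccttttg
Nr2f2: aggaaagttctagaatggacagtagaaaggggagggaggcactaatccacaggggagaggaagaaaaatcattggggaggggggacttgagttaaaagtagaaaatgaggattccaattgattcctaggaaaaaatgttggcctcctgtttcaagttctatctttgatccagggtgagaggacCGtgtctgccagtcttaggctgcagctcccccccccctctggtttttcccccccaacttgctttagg
Runx1t1: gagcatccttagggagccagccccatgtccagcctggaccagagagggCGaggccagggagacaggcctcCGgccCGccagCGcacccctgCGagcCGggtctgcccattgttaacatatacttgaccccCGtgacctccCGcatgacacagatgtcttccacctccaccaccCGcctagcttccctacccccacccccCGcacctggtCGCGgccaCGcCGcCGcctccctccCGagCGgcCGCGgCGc

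The same stretch is given for Disp3 (chr4:148372645-148372894, minus strand) and Rbfox1 (chr16:5124415-5124664, plus strand), the first 2 members by mean CTCF enrichment, with matches to AGNGGGC, part of the CTCF core motif, in capitals on either strand. Disp3 held 1 match, which begins 121 bases before the start, and Rbfox1 held 2. The record of Rbfox1 begins 1041571 bp from its canonical start.
Disp3: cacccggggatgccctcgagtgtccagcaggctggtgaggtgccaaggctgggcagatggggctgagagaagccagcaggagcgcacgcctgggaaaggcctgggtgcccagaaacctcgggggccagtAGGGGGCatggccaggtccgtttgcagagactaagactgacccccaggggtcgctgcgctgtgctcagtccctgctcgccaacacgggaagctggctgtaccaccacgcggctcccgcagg
Rbfox1: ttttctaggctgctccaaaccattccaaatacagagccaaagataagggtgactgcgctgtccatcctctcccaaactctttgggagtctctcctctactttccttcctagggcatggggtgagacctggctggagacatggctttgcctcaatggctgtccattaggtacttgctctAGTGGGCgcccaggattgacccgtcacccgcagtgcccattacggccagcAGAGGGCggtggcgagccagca

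Members were rich in CpG, but less so than starts with H3K4me3 alone. Within 500 bp of the start on either side, median G + C was 58.9% in members and 57.4% in the 7563 starts with H3K4me3 in all 5 lists and H3K27me3 in none (called H3K4me3-only below), against 53.6% over all starts. The median ratio of observed to expected CpG was 0.63 in members, 0.74 in H3K4me3-only starts and 0.51 over all starts. A window that reached 50% G + C and a ratio of 0.6 was found at 1810 members (55.7%), at 72.1% of H3K4me3-only starts and at 40.5% of all starts. Among the 232 starts with H3K27me3 in all 5 lists and no H3K4me3 it was found at 13.4%. AGNGGGC, read on both strands, was in the window of 69.9% of members with CTCF in all 3 lists, of 62.7% of members with CTCF in none and of 55% of all starts. TATAAA, read on both strands, was in the window of 22.5% of members and 34.5% of all starts.

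**Figure D1:**
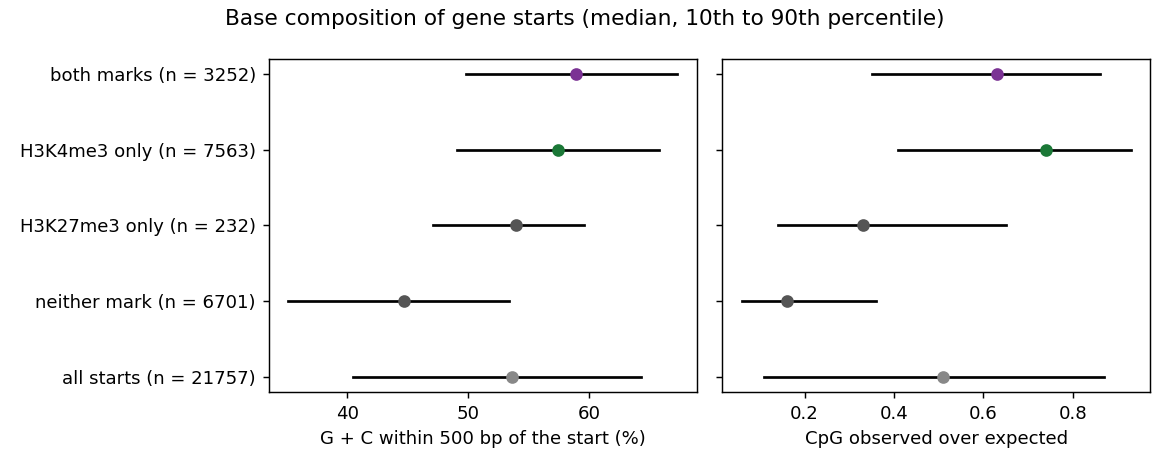
G + C content (percent) and the ratio of observed to expected CpG within 500 bp of gene starts, by class. Points are medians and lines run from the 10th to the 90th percentile. Members (both marks) had a median ratio of 0.63, between H3K4me3-only starts at 0.74 and H3K27me3-only starts at 0.33.

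The rule set how the 2 marks looked, and their values are given as description only. The median of the highest H3K4me3 fold enrichment over background near a member was 26.5 and 27.6 in the 2 lists at E11.5 and 36.7 to 40.1 in the 3 at E17.5. At H3K4me3-only starts it was 53.5 and 53.8 at E11.5 and 56.3 to 60.9 at E17.5. H3K27me3 near members had medians of 6.48 and 5.55 in the E11.5 lists and 4.91 to 6.02 in the E17.5 lists, in peaks with a median width of 4115 and 3492 bp at E11.5 and 4511 to 5737 bp at E17.5. At 1341 members the start lay inside a peak of both marks in all 10 lists. Near the limit of the window, Tgds and Cdhr5 were members at a distance of 2000 bp, whereas Trim10 missed it at 2002 bp and Crb3 at 2014 bp. A further 499 starts met the rule in 9 of the 10 lists, and 237 of these lacked only an H3K27me3 peak in replicate 2 at E11.5.

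Members were next compared with the lists of the humanized line, which the rule did not use, outside chromosome 13, where the coordinates of the humanized genome are shifted. Of the 3131 members outside chromosome 13, between 96.6% and 99.9% had a peak in each humanized H3K4me3 or H3K27me3 list. Applied to those lists, the rule gave 3125 starts, and 2924 were shared (93.4% of the wild type set and 93.6% of the humanized set).

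The start of a gene record can lie far from the gene's canonical start and near another record. The record of Fgfr2, a receptor for fibroblast growth factors, begins 2856807 bp from the start of its canonical transcript. It does so through 1 transcript that begins near the record start of Ctbp2, a transcriptional corepressor, so the same peaks were counted for both. The record of Ctbp2 itself begins 109106 bp from its canonical start, and by that start Ctbp2 was not a member. The records of Otx2 and Ntn1, named below, begin 6269 and 13642 bp from their canonical starts, by which both were members. The canonical start lay over 2000 bp away for 314 members (9.66%), and 236 members had the same enrichment as another member in every list. With canonical starts, an alternative chosen after seeing the data, 3355 starts met the rule and 3060 of the 3252 members were kept. Of the members, 1451 (44.6%) had another member as the next protein-coding start on either side, and 14.9% of all starts were members. The share that random placement would give was not computed. In 144 cases neighbouring members had starts at most 2000 bp apart and could share peaks. Runs of 5 or more held 52 members, among them Irx3, Irx5 and Irx6 with Mmp2 and Lpcat2 on chromosome 8, and Gsx2, Pdgfra, Kit and Kdr with Chic2 on chromosome 5.

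H3K27ac was found at a smaller share of members than of all starts at E11.5, and at a larger share at E17.5. At E11.5 a peak lay within 2000 bp of 38.5% and 35.9% of members in the 2 replicates, against 48.6% and 47.5% of all starts and 94.2% and 93.2% of H3K4me3-only starts. At E17.5 the shares of members were 68.0%, 68.4% and 72.1%, against 57.2%, 57.7% and 58.9% of all starts and 98.5% to 98.9% of H3K4me3-only starts. The replicates of the 2 stages did not overlap, and with 2 lists against 3 no exact test can pass 0.05. The E17.5 lists were also longer, with 62715 to 77412 peaks against 36146 and 32415, and with the 32415 strongest peaks of each list the shares of members were 36.9% and 35.9% at E11.5 against 54.6% to 58.9% at E17.5. All starts then had 47.8% and 47.5% at the earlier stage and 52.9% to 54.1% at the later one, so that members exceeded them by less than with the full lists.

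**Figure D2:**
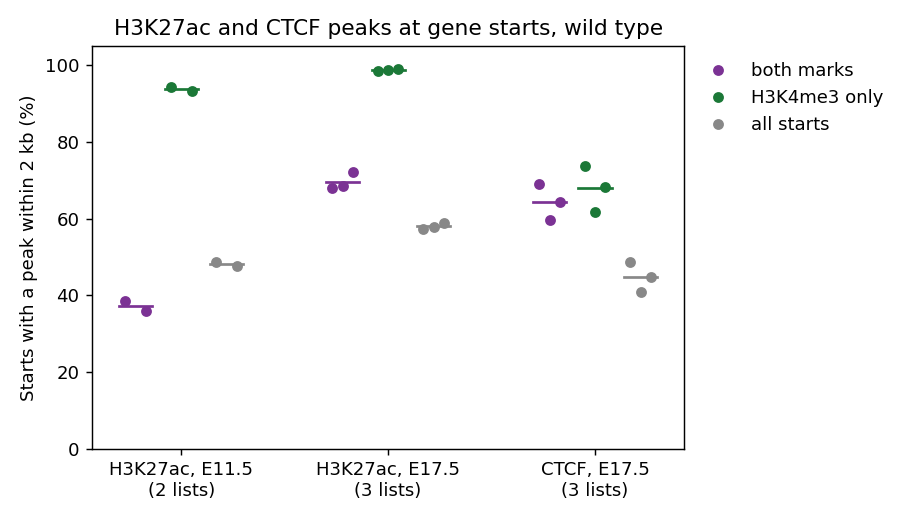
Share of gene starts (percent) with an H3K27ac or CTCF peak within 2 kb, with 1 point per wild type peak list and a bar at the mean. Members (both marks) went from 35.9% to 38.5% at E11.5 to 68.0% to 72.1% at E17.5 for H3K27ac, and lay below H3K4me3-only starts in every list.

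By list pattern, 1013 members (31.2%) had H3K27ac in all 5 lists, where 45% of all starts did. H3K27ac was gained, called in neither E11.5 list and in every E17.5 list, at 878 members (27%), where 7.86% of all starts did so. It was lost, called in both E11.5 lists and in no E17.5 list, at 36 members (1.11%), where 0.62% of all starts did so. No list had H3K27ac at 792 members (24.4%), where 39.3% of all starts had none, and the other 533 were mixed between replicates. With all lists of a mark cut to equal length, 494 of 2851 members gained H3K27ac (17.3%) and 70 lost it (2.46%), while 5.24% of all starts gained it. The share of all starts that lost it at this length was not computed. The antibody lot used for H3K27ac also binds H2BK5ac, as the study's methods state, and these peaks may hold both.

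The highest mean H3K27ac enrichment at E11.5 was at Nr2f2, an orphan nuclear receptor (COUP-TFII), at 50.4- and 55.2-fold in the 2 lists. Its enrichment at E17.5 was 42.8-, 57.1- and 57.4-fold, and so overlapped that of E11.5. Otx2, a homeodomain factor of the forebrain and midbrain, had 45.4- and 54.2-fold at E11.5 and 26.0-, 20.6- and 18.4-fold at E17.5, with no overlap between stages. Runx1t1, a transcriptional corepressor, went the other way, from 20.3- and 24.3-fold to 67.4-, 75.6- and 73.4-fold. At Vax1, a homeodomain factor of the ventral forebrain, H3K27ac went from no peak to 30.6-, 31.9- and 28.5-fold. H3K27me3, which the rule requires in every list, was 21.4- and 18.7-fold at E11.5 and 13.74-, 10.99- and 11.33-fold at E17.5. At Sall4, a zinc finger factor of pluripotent cells and limb development, H3K27ac was 12.03- and 12.29-fold at E11.5 and in no list at E17.5. H3K27me3 there was 3.33- and 2.98-fold at E11.5 and 15.46-, 10.14- and 11.01-fold at E17.5.

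CTCF at E17.5 was near 69.0%, 59.5% and 64.3% of members in the 3 replicates, against 48.6%, 40.9% and 44.7% of all starts and 73.7%, 61.7% and 68.3% of H3K4me3-only starts. All 3 lists had CTCF at 1783 members (54.8%), where 37.9% of all starts and 57.6% of H3K4me3-only starts did. Members thus stood close to H3K4me3-only starts and above the whole set, which includes 6701 starts with neither mark. The share with CTCF in all 3 lists was 64.0% in members with H3K27ac in all 5 lists, 60.1% in those that gained it and 38.6% in those without it. Fold enrichment near members had medians of 8.34 to 9.21. The highest were at Disp3, a membrane protein of the patched and dispatched family, with 85.5-, 74.1- and 65.8-fold. Rbfox1, a neuronal splicing regulator, had 77.0-, 59.6- and 68.5-fold, and Mapt, which encodes the microtubule protein tau, had 85.0-, 72.1- and 45.8-fold. Crh, which encodes corticotropin-releasing hormone, had 72.7-, 58.6- and 69.7-fold.

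RNA libraries held 18124370 to 24272569 reads on genes. Replicate 1 at E17.5 stood apart: its counts differed from those of the other 3 with a chi-square of 211 to 261 per degree of freedom, where all other pairs of 1 stage had 7.31 to 59.9, and the counts below are given with it first and, where stated, without it. Summed markers of neural progenitors went from 3750 to 4120 CPM (read counts scaled to library size) at E11.5 to 519 to 800 at E17.5, and neuron markers went from 1450 to 1840 to 4870 to 5560. Erythroid markers went from 1740 to 3650 to 244 to 1020 and markers of meninges and mesenchyme from 1460 to 1920 to 439 to 732, while those of forebrain and diencephalon were 1740 to 2280 and 1640 to 1980. The part of these shifts in the results below was not tested, and in bulk tissue fewer cells of a type and less RNA per cell cannot be told apart.

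Members were expressed at low levels, and more were expressed at E17.5. Of the 3247 members with a row in the count tables, 45.2% to 46.1% reached a level of 1 CPM per kb of exon in the E11.5 samples and 56.9% to 58.8% in the E17.5 samples. The median level was 0.788 to 0.804 CPM per kb at E11.5 and 1.46 to 1.61 at E17.5. H3K4me3-only starts had medians of 5.52 to 5.86 and 5.03 to 5.18, and 83.7% to 86.9% of them reached 1 CPM per kb across the 8 samples. By stage means, 1279 members (39.4%) reached this level at both stages, 623 (19.2%) at E17.5 only, 198 (6.10%) at E11.5 only and 1147 (35.3%) at neither.

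Between stages, 2819 members passed the filter on low counts, and the counts below cover these and not all 3252. In edgeR (quasi-likelihood, p adjusted over all genes by Benjamini-Hochberg), 1398 of them (49.6%) were higher at E17.5, where 29% of all 18583 genes tested were, and 642 (22.8%) were lower, where 26.7% were. The median log2 fold change was 0.71 in members and -0.01 over all genes tested. Without replicate 1 at E17.5, 1491 members were higher (52.1%) and 844 lower (29.5%), with a median of 0.58, where 36.0% and 36.3% of all genes tested were. H3K4me3-only starts had 1471 higher (20.4%) and 2051 lower (28.5%) of 7195 tested, and 2006 and 3217 without that replicate.

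**Figure D3:**
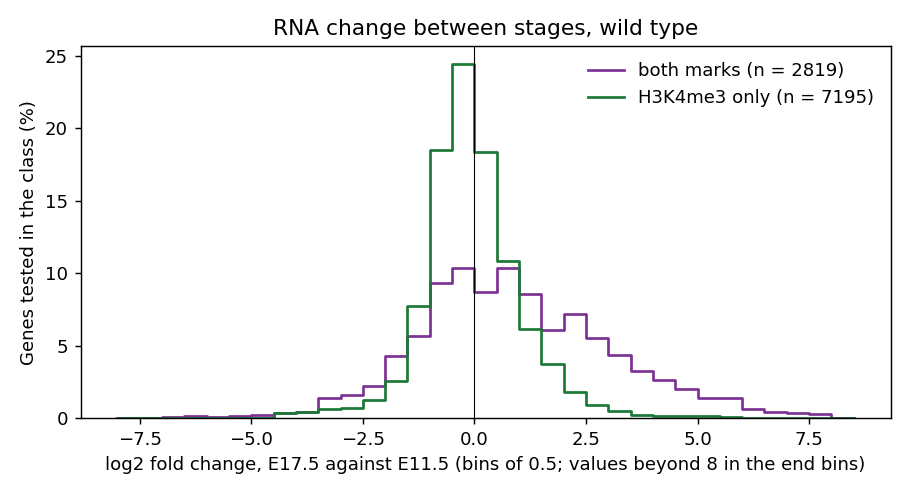
Distribution of log2 fold changes in RNA from E11.5 to E17.5 in wild type samples, as percent of the genes tested in each class in bins of 0.5. The curve of members (both marks, n = 2819) is shifted to the right with a median of 0.71, and that of H3K4me3-only starts (n = 7195) lies around a median of -0.14.

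RNA moved with H3K27ac in members that gained or lost it, where 29% of all genes tested were higher at E17.5 and 26.7% lower. Of the 827 tested members that gained H3K27ac, 610 (73.8%) were higher at E17.5 and 57 lower, with a median log2 fold change of 2.18. Without replicate 1 at E17.5 the lower count was 90, beside 628 higher of 831. Of the 32 tested members that lost it, 27 were lower and 1 was higher, with a median of -2.55 (30 and 2 without that replicate). H3K4me3-only starts showed the same directions. Of the 224 tested that gained it, 108 (48.2%) were higher and 24 lower (120 and 59 of 227 without that replicate). All 12 tested that lost it were lower. Members with H3K27ac in all 5 lists were split, with 364 higher and 314 lower of 986 (401 and 399 without that replicate). Those without H3K27ac had 203 higher and 136 lower of 493 (225 and 175 of 522 without that replicate). Starts with both marks at E11.5 and no H3K27me3 at E17.5 (267 starts) had 170 higher and 27 lower of 260 tested (178 and 43 of 262 without that replicate). The 457 starts with both marks at E17.5 and no H3K27me3 at E11.5 had 84 higher and 191 lower of 425 (106 and 224 of 428 without that replicate).

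Avp and Vax1 were among the largest rises. Avp, which encodes vasopressin, had no read at E11.5 and 5.28, 1.56, 4.16 and 3.72 CPM per kb at E17.5, at least 81.5-fold higher against a floor of 3 reads over the group. Vax1 had 1 read at E11.5 and 8.78, 4.96, 4.08 and 3.20 CPM per kb at E17.5. Its E17.5 to E11.5 ratio was 472, with a 95% interval of 84.3 to 18700 that covers counting error only. The stages were apart for both genes, which were called with adjusted p from edgeR of 8.75e-05 and 3.64e-06. Thy1, a surface protein of mature neurons, rose from 0 to 0.0348 CPM per kb to 2.46 to 4.99, with a log2 fold change of 7.88 ± 0.50 (SE). Slc6a7, a brain proline transporter, rose from 0 to 0.205 CPM per kb to 16.3 to 28, and Cpne7 had a log2 fold change of 7.93 ± 0.39 (SE). Frem3 had no read at E11.5 and was at least 54.9-fold higher at E17.5, and the ratio at Prlr, the prolactin receptor, with 3 reads at E11.5, was 290 with an interval of 98.8 to 1410.

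Tal2 and Sall4 were among the largest falls. Tal2, a bHLH factor of midbrain and diencephalic GABAergic neurons, had 44.1, 28.8, 52.7 and 36.5 CPM per kb in the E11.5 samples and 0.191, 0.458, 0.275 and 0.263 at E17.5. Olig3, a bHLH factor of dorsal progenitors and the thalamus, had 43.8, 41.4, 29.2 and 26.6 at the earlier stage and 0.341 to 0.514 at E17.5. Hmga2, a chromatin protein of fetal stem cells, had 23.6, 26.9, 25.7 and 26.9 at the earlier stage and 0.276 to 0.423 at E17.5. No E17.5 sample reached an E11.5 sample for these 3 genes, whose log2 fold changes were -7.09 ± 0.34, -6.31 ± 0.28 and -6.23 ± 0.22 (SE). Sall4 had a log2 fold change of -6.88, Neurog1, a proneural bHLH factor, of -6.23, and Msx2, a homeodomain factor of dorsal midline and neural crest, of -6.02. Helt, also a bHLH factor of GABAergic neurons, and Usp44, a deubiquitinase, had log2 fold changes of -6.58 and -6.46.

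**Figure D4:**
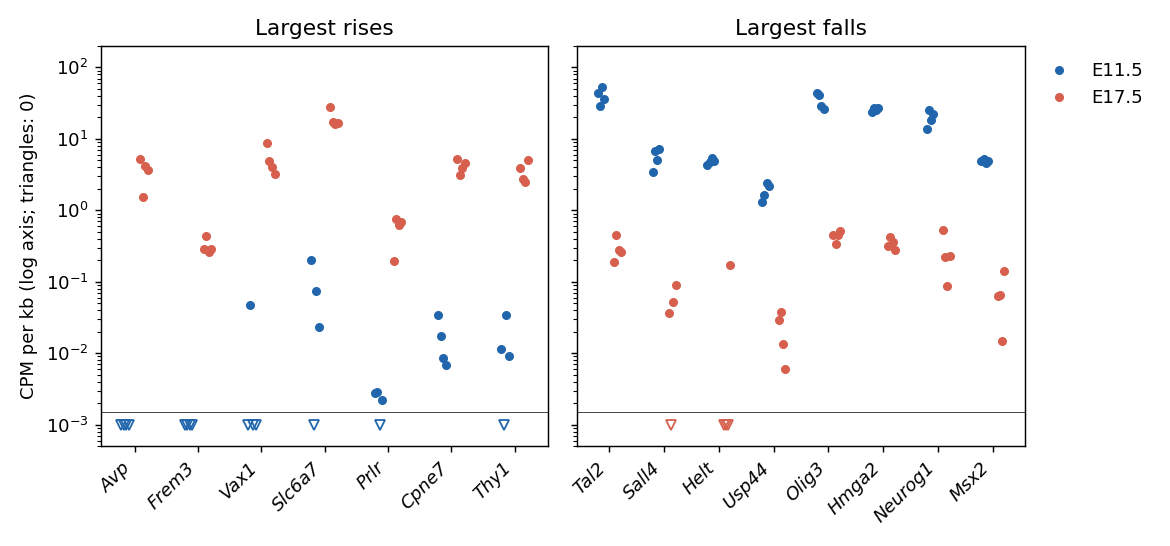
RNA level in CPM per kb of exon (log axis) in each of the 4 wild type samples per stage, for 7 of the 8 members with the largest rises and the 8 with the largest falls, among called members that did not overlap between stages and reached 1 CPM. Triangles at the foot mark samples with no read, and the stages did not overlap for any of the 15 genes.

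Among transcription factor families, members made up 11 of 12 sine oculis-type and Iroquois homeodomain genes and 10 of 12 LIM homeodomain genes, where 14.9% of all starts were members. They made up 41 of 55 bHLH genes and 33 of 45 NK and related homeodomain genes. Shares were lower in nuclear receptors (18 of 45) and T-box factors (5 of 16). Of the tested members, 9 of 11 sine oculis-type and Iroquois genes, 18 of 31 bHLH genes, 9 of 11 paired-like genes, 5 of 7 POU genes and 11 of 24 NK genes were lower at E17.5, and 1, 5, 0, 0 and 6 were higher, where 26.7% of all genes tested were lower and 29% higher. Without replicate 1 at E17.5 the lower counts were 9 of 11, 22 of 32, 10 of 11, 6 of 8 and 14 of 25. Sox factors had 7 lower and 2 higher of 11, and forkhead factors 9 lower and 4 higher of 20. Other families were split or mostly higher: nuclear receptors had 9 higher and 3 lower of 16, Zic and Gli factors 4 and 3 of 9, LIM homeodomain factors 4 and 5 of 9, and T-box factors 2 and 1 of 4. Without that replicate nuclear receptors had 11 higher and 5 lower of 17. The 56 members among 67 transcription factors of the diencephalon had 30 lower and 15 higher of 55 tested (34 and 16 of 56 without that replicate), and 43 had H3K27ac in all 5 lists. Log2 fold changes were -2.96 at Barhl2, -2.24 at Pou3f2, a POU factor of neuronal precursors and -1.87 at Irx2. Id4, an inhibitor of bHLH factors, rose from 21.1 to 29.0 CPM per kb to 121 to 161, with a log2 fold change of 2.41 ± 0.18 (SE), and Zic1 rose by 0.69 ± 0.16. Sox2, a factor of neural progenitors, was among the higher members at 115 to 122 CPM per kb at E11.5 and 65.3 to 96.5 at E17.5, and fell by 0.65 ± 0.17. Of 39 Hox genes, 7 were members (17.9%, close to the share of all starts). All 7 were without H3K27ac in any list, where 39.3% of all starts and 24.4% of members were.

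Members among signalling genes were divided, where 26.7% of all genes tested were lower at E17.5 and 29% higher. Among Wnt ligands, receptors and inhibitors, 42 of 51 genes were members, where 14.9% of all starts were. Of the 37 tested members, 18 were lower and 7 higher, or 21 and 8 without replicate 1 at E17.5. The whole list, members or not and with all samples, had 21 lower and 8 higher of 44 tested. Fzd10, a Wnt receptor, fell from 40.7 to 51.1 CPM per kb to 4.07 to 9.66. Of the Hedgehog pathway, 4 of 5 tested members were lower and 0 higher, and over the whole list 7 of 9 were lower and 0 higher. The ligand Shh fell from 23.5 to 33.1 CPM per kb to 1.72 to 2.93, by 3.71 ± 0.24 on the log2 scale (SE). TGF-beta and BMP genes had 11 higher and 6 lower of 24, and 13 higher and 10 lower of 26 without replicate 1 at E17.5. The BMP antagonist Nog had a log2 fold change of 0.64 ± 0.21 (SE, edgeR adjusted p = 0.0252), a call that was lost in 6 alternatives, among them each fit without 1 E11.5 sample (adjusted p = 0.0514 to 0.0757, edgeR). Semaphorins, netrins, slits and their receptors had 14 higher and 8 lower of 27 (14 and 11 without that replicate), with the axon guidance cue Ntn1 lower (log2 fold change -1.91 ± 0.34, SE).

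Members among channels and receptors of neurons were mostly higher at E17.5, where 29% of all genes tested were. Voltage-gated channels gave 51 members of 84 genes (60.7%, against 14.9% of all starts). Of the 47 tested, 38 were higher and 0 lower, or 39 and 2 without replicate 1 at E17.5. Over the whole list, members or not, 63 of 73 tested were higher and 0 lower. Receptors of glutamate, GABA and glycine had 17 higher and 1 lower of 19 tested members, and 13 of the 22 members gained H3K27ac. Gabbr2, a subunit of the metabotropic GABA receptor, had 0.753, 0.483, 0.610 and 0.618 CPM per kb in the E11.5 samples and 23.2, 25.5, 19.3 and 23.3 in those of E17.5. Receptors of monoamines, acetylcholine and opioids had 20 higher and 2 lower of 25, and neuropeptides had 9 higher and 0 lower of 11 (9 and 1 without that replicate). Npy, which encodes neuropeptide Y, rose from 0.181 to 0.846 CPM per kb to 6.10 to 12.5. Cadherins and protocadherins had 19 higher and 3 lower of 29, and 69 higher and 7 lower of 93 over the whole list. The whole list of glutamate, GABA and glycine receptors had 38 higher and 2 lower of 43. That of monoamine, acetylcholine and opioid receptors had 29 and 2 of 37, and that of neuropeptides 15 and 1 of 21. The rise was thus not particular to the members of these lists.

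**Figure D5:**
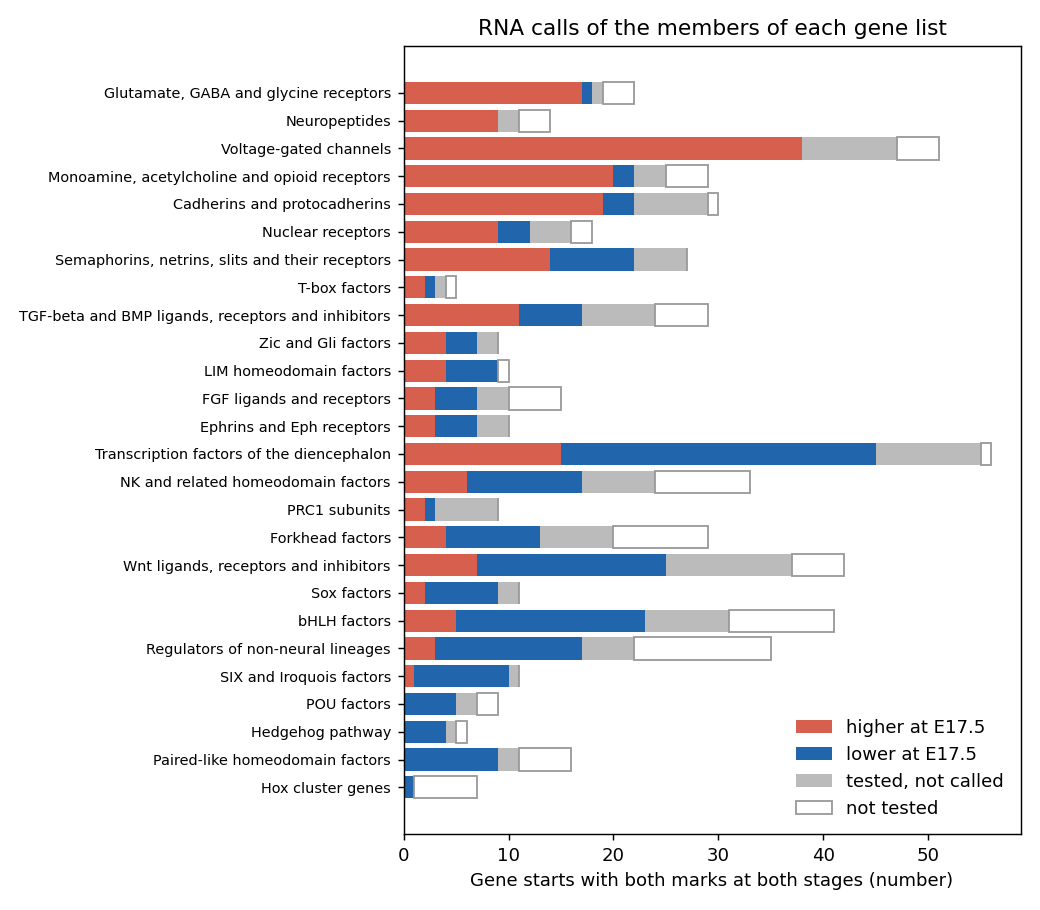
Number of members in each gene list with at least 4 members, split by RNA call between stages (edgeR, adjusted p under 0.05) and sorted by the share higher at E17.5. Voltage-gated channels (38 higher, 0 lower) and receptors stand at the top, and paired-like, POU and Hedgehog genes, with 0 higher, near the foot.

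Some members were among the abundant transcripts. The highest levels at E11.5 were at Cd24a (309 CPM per kb), H1f0 (297), Nes (253) and Tubb3 (244), and at E17.5 at Tubb3 (397), Ina (368), Cd24a (275) and Stmn2 (247). Nes, which encodes the progenitor filament nestin, had 245, 224, 288 and 256 CPM per kb in the E11.5 samples and 23.3, 17.8, 9.94 and 8.17 in those of E17.5. Stmn2, a neuronal tubulin regulator, had 67.3, 56.2, 65.0 and 57.9 in the E11.5 samples and 253, 233, 240 and 260 in those of E17.5. Both pairs of groups were apart, with Nes lower and Stmn2 higher at E17.5. The E17.5 order rested on replicate 1, which was also high for Ina, a neuronal filament protein (588.5 CPM per kb against 290.4 to 298). The E17.5 mean of Tubb3, a neuronal tubulin, rested on it too, at 818 CPM per kb against 241 to 268 in the other 3, and its log2 fold change was 0.71 (adjusted p = 0.135, edgeR) and 0.06 without it. Mapt rose from 14.4 to 21.1 CPM per kb to 145 to 354.

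Among the genes that write and remove the 2 marks, 0 of 18 genes of the H3K4 methyltransferase complexes, 0 of 2 H3K27 demethylases and 2 of 12 PRC2 genes were members, where 14.9% of all starts were. Of 24 PRC1 genes, which encode the complex that binds H3K27me3 and ubiquitinates H2A, 9 were members (37.5%). Of the 9 tested, 2 were higher at E17.5 and 1 lower, where 29.0% and 26.7% of all genes tested were. Without replicate 1 at E17.5 these were 3 and 2 of 9, where 36.0% and 36.3% of all genes tested were. Bmi1, a PRC1 subunit, had 20.8, 12.2, 30.7 and 22.1 CPM per kb in the E11.5 samples and 7.93, 23.02, 18.38 and 21.56 in those of E17.5, with overlapping groups (adjusted p = 0.524, edgeR). Of 78 genes of cytosolic ribosomal proteins, 2 were members.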

How the data were processed

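Per the labels and the study's methods, the authors aligned RNA reads to mm39 with STAR 2.7.9a and deposited read counts per gene, and the unstranded counts were used here. Between 48.1% and 55.3% of wild type reads lay on no gene and were left out. ChIP reads were aligned with Bowtie2 2.4.2 and peaks called in each replicate with MACS2 2.2.7.1. The deposited peak lists give a fold enrichment, a ratio over background, and a −log10 q for each peak. Peak settings for H3K27me3 are not given in the sources used here. The input libraries were not analysed here.

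Gene names, starts and exon lengths came from GENCODE M39, where the authors used an earlier release, and 3247 of 3252 members had a count row. A peak counted if any base lay within 2000 bp of the start. Peak presence and enrichment were described without a test. RNA was tested with edgeR 4.0.16 (filterByExpr, TMM, quasi-likelihood, 4 samples per stage) and DESeq2 1.42.0 as an alternative. P-values measure the spread between pooled samples, each pool from a single litter. Levels are TMM-scaled CPM divided by the length of all annotated exons in kb, which lowers genes with many annotated isoforms. Counts were simulated from this comparison over 18583 genes, with few of them changed. There the test recovered 0% of 1.5-fold, 14.9% of 2-fold and 78.8% of 4-fold changes, with 0 unchanged genes called. In the real comparison 10356 genes were called, and adjusted p-values are less strict where many genes change. The recovery rates therefore do not carry over to the real comparison.

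Members and gene lists were chosen with earlier results of these data known. Named genes were the 8 largest rises and 8 largest falls among called members whose stages did not overlap and whose higher stage reached 1 CPM, the member with the highest level in each list with at least 4 members, the 4 highest levels at each stage, the 4 highest CTCF and H3K27ac enrichments, and members at the edge of the window. Some genes that this rule names are not reported here. Pax, GATA and non-neural lineage lists are given in the closing section. Replicate numbers of the 2 stages did not pair the samples.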

Additional observations from a re-analysis of the deposited data

Results flagged for a closer look

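Of 126 groups of 4 samples examined (the levels of named genes and 3 summaries over all members, by stage), 21 had 1 sample far from the other 3, where chance gives about 1 in 20. In 14 of them the sample was replicate 1 at E17.5, which was high in 13 and low in 1. Its levels, in CPM per kb, were 27.97 for Slc6a7, 96.51 for Sox2, 22.69 for Foxp4, 5.70 for Barhl2, 9.664 for Fzd10, 147.6 for Cacng4, 45.27 for Cdh4, 818.4 for Tubb3, 588.5 for Ina, 1.965 for Disp3, 354.5 for Mapt, 78.28 for Prpf8 and 0.01901 for Cdhr5, and the low value was 0.7476 for Tgds. Without this sample the log2 fold change of Foxp4 was -1.35 in place of -0.94 and that of Cdh4 1.28 in place of 1.71, with the same sign.

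At E17.5 replicate 2 was high for Frem3 (0.4343) and Shox2 (14.57) and replicate 4 for Helt (0.1692). At E11.5 replicate 2 was high for Vax1 (0.04704) and Sox2 (121.6), replicate 3 for Crh (0.07351), and replicate 1 for Cacng4 (49.15). The E11.5 values of Vax1 and Crh come from 1 and 2 reads in all. No gene had a stage effect that differed between wild type and humanized samples at an adjusted p under 0.05 in edgeR's interaction test over 20234 genes (1610 had an unadjusted p under 0.05).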

How the results depend on the processing

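The number of members was 2785 with a window of 1 kb, 3798 with 5 kb, 3653 with any coding transcript start and 3256 to 3489 when 1 list of a rule mark was left out. It was 1836 with peaks of a −log10 q of at least 5, and the counts fell with it: 332 with H3K27ac in all lists, 443 gaining it, 20 losing it, 882 with CTCF, and 1076 called in RNA (699 higher, 377 lower). There 24.1% of members and 8.59% of all starts gained H3K27ac. With equal list lengths 494 gained and 70 lost H3K27ac. The share of all starts that lost it was not computed in either setting. The fewer members or peaks are built into both settings.

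Members called in RNA numbered 2040, 2175 with DESeq2, 2051 with its size factors, 2103 with no filter and 2060 with the stranded column. They numbered 2277 with all 16 samples and 2366 in the 8 humanized samples. Across these settings 18.7% (no filter) to 38.2% (humanized samples) of all genes tested were higher, and 14.1% to 39.5% lower. In the humanized samples 1455 members were higher and 911 lower, with a median log2 fold change of 0.55, so that more genes were called in general. Leaving out 1 RNA sample gave 1919 to 2335, where 26.1% to 36.0% of all genes tested were higher and 21.4% to 36.3% lower. A replicate block gave 1949 (1336 higher, 613 lower), where 26.3% of all genes tested were higher and 24.7% lower. Deviations of log CPM from the stage mean, over genes, correlated at -0.504 to 0.346 between same-numbered samples of the 2 stages. The same-numbered sample was never the closest match, so the numbers showed no pairing. Of 59 named genes tested, 3 (Disp3, Foxp4 and Nog) lost the call in at least 1 setting, and log2 fold changes reversed in the humanized samples for Bmi1 (0.50) and Cd24a (0.20), neither called in wild type. Peak lists carry no read depth, so a missing peak is not an absent mark.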

Other observations

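Members also included 35 of 75 regulators of non-neural lineages (46.7%, against 14.9% of all starts). Of these 35, 18 had no H3K27ac in any list, where 39.3% of all starts and 24.4% of members had none. Of the 22 tested, 14 were lower and 3 higher at E17.5, where 26.7% and 29% of all genes tested were. Of these, Sall1, a zinc finger factor of kidney development, had the highest level and fell from 8.02 to 12.2 CPM per kb to 2.74 to 3.04. Of 6 GATA factors, 3 were members and 2 were lower, and of 9 Pax factors 3 were members and the 2 tested were lower. Pax3 and Pax6 had log2 fold changes of -4.23 and -2.08.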
